A study of Rattus norvegicus with 6 samples.

Results

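The genes described here are 8 markers of Schwann cells and of nerve adhesion, *Mbp*, *Sox10*, *Cdh19*, *Prx*, *Pmp22*, *S100b*, *Ncam1* and *L1cam*. They were chosen by gene symbol from the 17771 genes listed in the deposited count table. All 8 were listed, and all 8 passed the filter on low counts among 14213 genes tested. The measurements are bulk RNA sequencing of corneas from Wistar rats that carried a corneal allograft from SD (Sprague-Dawley) donors. Recipients were injected intraperitoneally each day with resveratrol, a plant polyphenol, or with saline, until day 7 after surgery. There were 3 libraries from resveratrol rats and 3 from saline rats, called control here, and the comparison asks which genes differed between these treatments. The controls were grafted too, so no library represents an ungrafted cornea. The labels do not say whether tissue was taken from the graft, the host rim or both, whether libraries came from separate animals, or the animals' age. The p-values below therefore measure only the spread between these libraries, which may be technical.

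Schwann cells are the glia of peripheral nerves. The cornea receives dense sensory innervation from the trigeminal ganglion, and the axons are accompanied by Schwann cells in the stroma and lose their myelin on the way to the epithelium. A corneal graft severs these nerves, whose cell bodies lie outside the cornea, so that mRNA made in the neurons themselves is mostly not sampled. Sox10 is the transcription factor that Schwann cells require at every stage. Cdh19 is a cadherin of the neural crest and glial lineage, S100b a calcium-binding protein of glia, Mbp, Pmp22 and Prx are proteins of compact or non-compact myelin, and Ncam1 and L1cam are immunoglobulin-domain adhesion molecules of axons and non-myelinating Schwann cells. None of these genes is restricted to glia, and several are also active in epithelial, stromal, pigment or immune cells.

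Total counts were 35068936 to 37460756 per library, and 3 counts, the least taken as detection, correspond to 0.0790 to 0.0862 CPM, the count scaled to library size. The cornea label matched its markers, with *Krt12*, the keratin of corneal epithelium, at 31838 to 37566 CPM in the 6 libraries. Of the defining lens and retina genes, 11 of 11 were listed and 5 were tested. Their summed level was 7.13 to 8.36 CPM in control, against 8.53 to 16.4 CPM in resveratrol, highest in resveratrol 2. CPM values below are scaled with TMM factors, and log2 fold changes are resveratrol minus control with a moderated standard error (SE). The genes were proposed with results of this contrast known, so the fold changes and p-values given for them are descriptions and support nothing further. Over all 14213 genes, the quasi-likelihood test of edgeR called 0 (0%) at an adjusted p under 0.05, while 2782 (19.6%) had an unadjusted p under 0.05 and DESeq2, run as an alternative, called 1007 of 14666 (6.87%).

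Promoter sequence is shown for the members whose levels varied least and most across the 6 libraries, *Pmp22* (1.28-fold from lowest to highest) and *S100b* (5.99-fold). All 8 symbols matched RefSeq, but the set of promoter sequences used, for assembly GRCr8, held an entry for only 5 of the 8 genes. Each run is the stretch upstream of the outermost annotated start, written 5′ to 3′ on the gene's strand. The *Pmp22* run is chr10:48294682-48294931, plus strand, and the *S100b* run is chr20:12381160-12381331, minus strand. Capitals mark the letters ACAAT or ACAAAG, core forms bound by SOX proteins, on either strand, and the forms marked here do not overlap.
Pmp22: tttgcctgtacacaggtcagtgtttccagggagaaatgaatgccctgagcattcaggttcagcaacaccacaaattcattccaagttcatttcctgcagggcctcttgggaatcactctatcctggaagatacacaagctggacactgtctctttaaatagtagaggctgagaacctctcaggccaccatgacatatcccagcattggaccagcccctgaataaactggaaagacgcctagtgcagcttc
S100b: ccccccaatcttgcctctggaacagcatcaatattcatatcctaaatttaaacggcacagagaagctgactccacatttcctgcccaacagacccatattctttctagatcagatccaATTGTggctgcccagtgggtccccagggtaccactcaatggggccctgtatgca
The *S100b* run held 1 match, and 30.5% of 33469 promoters held either form in a window of the same 172 bases. The *Pmp22* run held 0, against 40.6% of promoters for 250 bases. A match is a description of letters and not of binding, and no match says only that these letters are not in this window.

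Per transcript length, the genes covered a wide range of levels. Mean FPKM over the 6 libraries, the authors' length-scaled value, was 15.7 for *Pmp22*, 13.3 for *Mbp*, 6.69 for *Ncam1*, 3.19 for *S100b*, 2.66 for *L1cam*, 1.18 for *Prx*, 0.177 for *Sox10* and 0.0494 for *Cdh19*. The plot of FPKM by gene shows this order. Neighbours in the order kept it in 6 of 6 libraries, except *S100b* and *L1cam*, where *S100b* was above *L1cam* in 3 libraries and below it in the others. *Pmp22* was above *Mbp* by only 1.18-fold in mean FPKM, and in resveratrol their values, 15.0 ± 0.701 and 13.9 ± 0.928 FPKM (SD, n = 3), lay within 2 SD of each other.

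**Figure D1:**
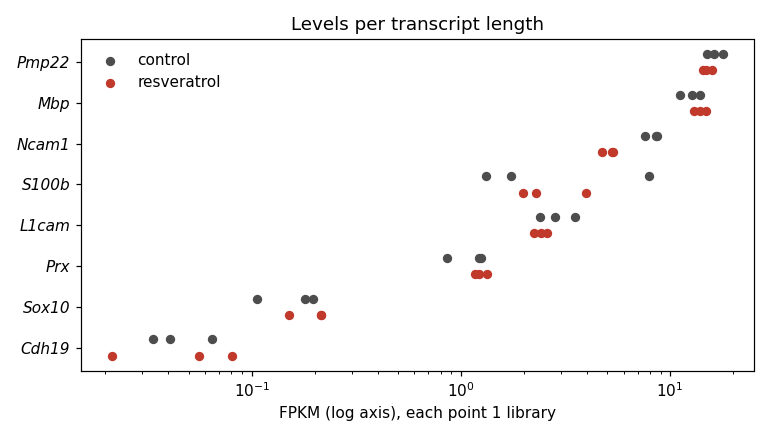
FPKM on a log axis for the 8 genes, ordered by mean level, with each point 1 library and control above resveratrol in each row. The points of *Ncam1* separate by group, and those of *S100b* are the most spread, with 1 control library at 7.89 FPKM.

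The lineage regulator and the glial cadherin were near the detection floor. *Sox10* had 19, 22 and 12 counts in control libraries 1, 2 and 3 and 17, 24 and 24 counts in resveratrol. In CPM these were 0.546, 0.599 and 0.322 against 0.464, 0.644 and 0.632. Control 3 was the lowest library, and the other 5 overlapped. The log2 fold change was 0.25 ± 0.37 (95% interval -0.61 to 1.11), so a change of about 2-fold upward was not distinguishable from none at this depth. Without control 3 it was 0.021.

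*Cdh19* had 9, 15 and 8 counts in control and 19, 13 and 5 counts in resveratrol, or 0.259, 0.408 and 0.214 CPM against 0.519, 0.349 and 0.132 CPM. Both the highest and the lowest library were resveratrol libraries. Exact Poisson 95% intervals, which cover counting error only, were 11.4 to 29.7 for the 19 counts of resveratrol 1 and 1.62 to 11.7 for the 5 counts of resveratrol 3. The log2 fold change of 0.18 ± 0.53 changed sign without resveratrol 1 (-0.28), without control 3 (-0.0056) and in the 4 libraries whose description ends in Oct (-0.37), so no direction is given.

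Among the myelin genes, no fold change exceeded 0.15 in size. *Mbp*, which encodes myelin basic protein, was at 33.3, 37.8 and 41.4 CPM in control, against 39.2, 43.5 and 40.1 CPM in resveratrol. Control 1 was lowest and the groups overlapped (log2 fold change 0.13 ± 0.10, edgeR adjusted p = 0.523). *Pmp22*, a membrane protein of compact myelin that is also made by epithelial cells and fibroblasts, was at 35.3, 38.6 and 32.5 CPM in control, against 32.6, 33.6 and 30.2 CPM in resveratrol. Its groups overlapped as well (log2 fold change -0.14 ± 0.096, edgeR adjusted p = 0.436). *Prx*, or periaxin, which links the Schwann cell membrane to its cytoskeleton, was at 6.53, 6.31 and 4.48 CPM in control, against 6.45, 6.85 and 5.87 CPM in resveratrol. Control 3 alone stood below the other libraries, and without it the log2 fold change went from 0.15 ± 0.19 to -0.0053.

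Mean FPKM of *Mbp* was 75.2-fold that of *Sox10*, with 62.5-fold to 132-fold in single libraries. *Mag*, a myelin-associated adhesion protein named after its values were seen, had 1 count over all libraries. The set of promoter sequences holds 2 start windows for *Mbp*, whose locus also gives rise to golli transcripts known from immune and other cells. The deposited count is per gene, so the forms cannot be told apart.

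*S100b* varied more between libraries than any other member. It had 100, 478 and 81 counts in control and 241, 120 and 138 counts in resveratrol, which is 2.87, 13.0 and 2.17 CPM against 6.58, 3.22 and 3.63 CPM. Control 2 was highest and resveratrol 1 next, while the other control libraries lay below all resveratrol libraries. The SD of log2 CPM within groups was 1.05, larger than that of 98.6% of the 2702 genes within 2-fold of its mean CPM. The log2 fold change was -0.43 ± 0.64 and became 0.83 without control 2, and edgeR's adjusted p was 0.756 with all libraries and 0.427 without it. The -0.43 is edgeR's estimate and the SE is limma's. With all libraries the log2 fold change was -0.035 in limma voom. In limma on log2 FPKM it was -0.076 with 1 added and -0.021 with 0.1 added.

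Of 6 tested genes of pigment cells, which share the neural crest origin and the *Sox10* and *S100b* expression of Schwann cells, 3 were highest in the same libraries as *S100b*. Wistar and SD rats are albino, so their pigment cells lack melanin but are present. The likeness was noticed after the values were seen. *Pmel*, which forms the fibrils of melanosomes, was at 0.575, 2.67 and 0.697 CPM in control, against 2.10, 0.940 and 0.816 CPM in resveratrol. *Dct*, an enzyme of melanin synthesis, was at 1.52, 5.90 and 2.20 CPM against 4.75, 2.98 and 1.45 CPM. *Tyrp1*, another such enzyme, was at 0.0575, 2.12 and 0.188 CPM against 1.04, 0.295 and 0 CPM, with values at or under 0.0862 CPM near the floor. In all 3, control 2 was the highest library and resveratrol 1 the next, as for *S100b*. Likeness of pattern was measured as the root mean square distance between log2 CPM profiles, each centred on its mean over the 6 libraries. By this measure *Pmel* was the nearest of 14212 genes to *S100b* (distance 0.285) and *Dct* was at rank 27 (0.496), whereas *Tyrp1*, with few counts, was at rank 13741. The other 3 tested pigment-cell genes did not peak in control 2. *Kit*, a growth factor receptor, was at 45.0, 35.5 and 24.3 CPM in control, against 42.4, 33.0 and 30.0 CPM in resveratrol (rank 1469). *Ednrb*, an endothelin receptor, was at 45.0, 38.6 and 35.0 CPM against 50.5, 36.8 and 37.2 CPM (rank 2609). *Mitf*, the melanocyte transcription factor, was at 1.44, 0.952 and 0.670 CPM against 0.819, 0.725 and 0.658 CPM (rank 7091). The next genes with a mean of at least 1 CPM were the chemokine gene *Cxcl2* (0.291) and the protease gene *Adamts8* (0.292). *Sox10* itself did not share the pattern, with a distance of 0.795 from *S100b*. Of the 10 pigment-cell genes listed, 10 were in the table and 6 were tested, and the summed level of the list, most of it *Ednrb* and *Kit*, was 63.2 to 93.6 CPM in control, against 70.1 to 102 CPM in resveratrol. The defining gene *Tyr* had 8 counts over all libraries. The part of pigment cells in the *S100b* values was not tested.

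*Ncam1* was the only member whose groups did not overlap. This homophilic adhesion molecule, also called CD56, was at 81.7, 82.3 and 72.2 CPM in control, against 51.3, 44.7 and 49.5 CPM in resveratrol. Every resveratrol library lay below every control library, and the ratio of group means was 0.616. The log2 fold change was -0.70 ± 0.090. The adjusted p was 0.1002 in the edgeR quasi-likelihood test, which did not pass, and 5.94e-07 in DESeq2. The edgeR value is the smallest over all genes, but it is a tie that other genes share, among them *Alcam* and *Nrp1*. Over the alternatives tried, the log2 fold change was between -0.76 and -0.59, and edgeR and limma adjusted p-values were 0.0590 to 0.280. The background is that 14.4% of tested genes had all resveratrol libraries lower and 4.64% were called lower by DESeq2. Bulk tissue cannot tell fewer cells expressing a gene from less RNA per cell.

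*L1cam*, a related adhesion molecule that binds in trans to itself and supports axon growth, had a smaller difference. It was at 18.8, 15.0 and 12.8 CPM in control, against 13.1, 13.6 and 11.6 CPM in resveratrol. Control 1 was highest, and control 3 lay among the resveratrol libraries. The log2 fold change was -0.28 ± 0.16 (95% interval -0.65 to 0.092), with an edgeR adjusted p of 0.374. Without control 1 it was -0.12.

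**Figure D2:**
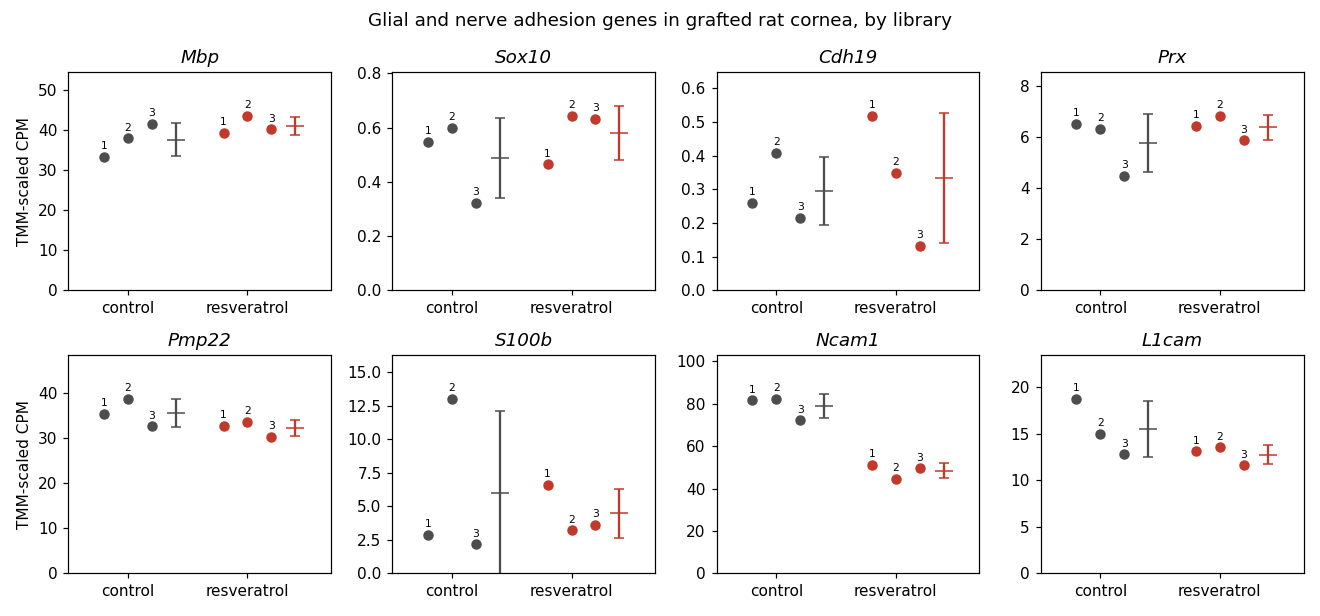
TMM-scaled CPM of the 8 genes, with each point 1 library numbered by replicate and a bar for the group mean ± SD (n = 3). Axes start at 0, which truncates the lower bar of *S100b* in control; the *Ncam1* groups are apart, at 72.2 CPM or more in control and 51.3 CPM or less in resveratrol, and the groups of the other 7 genes overlap.

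The genes most like *Ncam1* in pattern included matrix and fibroblast genes. Among 12317 genes with a mean of at least 1 CPM, the nearest were *Mmp14*, a membrane-bound matrix metalloproteinase (distance 0.0513), *Lrrc15*, a membrane protein of activated fibroblasts (0.0646), and *Msi1*, an RNA-binding protein (0.0650). *Mmp14* was at 653, 685 and 546 CPM in control, against 418, 363 and 418 CPM in resveratrol, and *Lrrc15* at 177, 197 and 150 CPM against 110, 98.5 and 110 CPM. In all 3, as in *Ncam1*, control 2 was the highest library. Among the members, the distance of *Ncam1* was 0.270 from *L1cam*, 0.295 from *Pmp22*, 0.451 from *Mbp* and 0.458 from *Prx*. It was 0.544 from *Sox10*, 0.638 from *Cdh19* and 0.868 from *S100b*. The genes nearest to *Sox10* were *Srms* (0.125), *Ptger1* (0.128) and *Zfp697* (0.130), and those nearest to *Cdh19* were *A2m* and *Mlc1* (0.162 each) and *Ccdc3* (0.188). These distances rest on 6 libraries, and for *Sox10* and *Cdh19* on few counts, so they are descriptions.

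**Figure D3:**
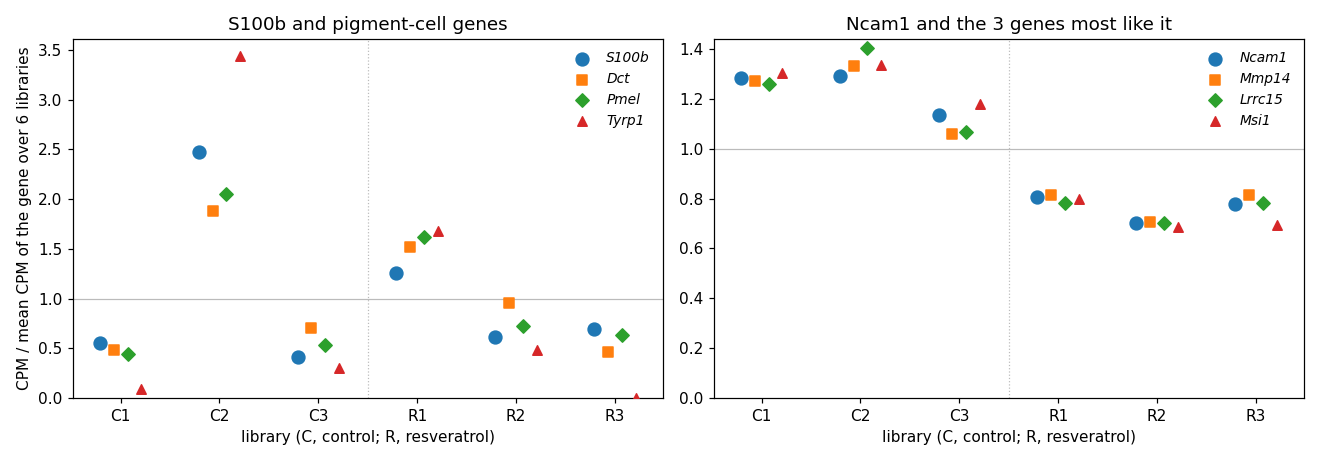
CPM of each gene divided by its own mean over the 6 libraries, for *S100b* with 3 pigment-cell genes (left) and *Ncam1* with the 3 genes of most similar pattern (right). On the left, control 2 and resveratrol 1 are highest for every gene; on the right, the 3 control libraries are above 1 and the 3 resveratrol libraries below 1.

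Beside *Ncam1*, markers of other cells also differed between the groups, and the counts below stand beside the 14.4% of all tested genes with every resveratrol library lower. Of the keratocyte and stromal fibroblast genes, 11 of 12 were tested, and 6 had all resveratrol libraries lower. The summed level of the list was 26078 to 33767 CPM in control, against 21287 to 28383 CPM in resveratrol. Its largest part was *Aldh3a1*, at 10331, 11493 and 10450 CPM in control, against 14453, 12596 and 10715 CPM in resveratrol, with overlap. The next was *Col1a1*, at 9242, 6859 and 5030 against 4540, 2693 and 3547 CPM, so the sum mixes both directions. Of the corneal endothelial genes, cells in which NCAM is also used as a marker, 4 of 9 tested had all resveratrol libraries lower and 0 had all higher, with a summed level of 295 to 426 against 265 to 275 CPM. Of the skeletal and smooth muscle genes, 4 of 12 were tested and 2 had all resveratrol libraries lower, with a summed level of 21.3 to 41.3 against 10.1 to 17.7 CPM; the muscle regulator *Myog* and the kinase *Ckm* were not listed. For macrophage, dendritic and T cell genes the count was 9 of 15, with a summed level of 188 to 277 against 136 to 191 CPM, and for blood vessel endothelial genes 8 of 12, with 587 to 845 against 393 to 492 CPM. Corneal epithelial genes had 0 of 9 lower, with 73284 to 82190 CPM in control, against 72952 to 82480 CPM in resveratrol. The part of these cells in the *Ncam1* difference was not tested.

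Of the 8 genes, 4 had lower and 4 higher means in resveratrol, where 51.2% of all tested genes had lower means. Their median log2 fold change was -0.0088, beside -0.0080 over all 14213 genes. None of the 8 passed edgeR's adjustment over all genes, 1 had an unadjusted p under 0.05, and DESeq2 called that gene, *Ncam1*, alone. Over all tested genes these shares were 0%, 19.6% and 6.87%. The number with a lower mean was 3 without control 2 and 6 without control 3.

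Other Schwann cell and myelin genes, from a list of 26 drawn from general knowledge, showed more lower than higher means. Of these 21 were tested, 15 with a lower and 6 with a higher mean in resveratrol, and the median log2 fold change was -0.50. None passed edgeR's adjustment, and 3 had all resveratrol libraries lower (background 14.4%). The most abundant, *Mal* (-0.094 ± 0.13) and *Erbb3*, the neuregulin receptor subunit (0.033 ± 0.091), are also made by epithelial cells. DESeq2 called 1 gene, *Cnp*, where it called 6.87% of all its tested genes. *Cnp*, an enzyme of myelinating glia that is also induced by interferon, was at 61.4, 57.3 and 45.5 CPM in control, against 32.3, 38.9 and 39.9 CPM in resveratrol (-0.56 ± 0.14). *Ngfr*, the low-affinity neurotrophin receptor of immature and non-myelinating Schwann cells and of limbal epithelial cells, had its higher mean under resveratrol, at 16.1, 18.2 and 29.4 CPM in control, against 56.6, 26.9 and 34.5 CPM in resveratrol, with control 3 above resveratrol 2 (0.89 ± 0.31). *Cnp* and *Ngfr* were chosen after their values were seen.

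Axon and sensory neuron genes were sparse. Of 18 genes 7 were tested, 6 with a lower mean, and the median log2 fold change was -0.61. All resveratrol libraries were lower for 3 of the 7 (42.9%) and higher for 0, beside 14.4% and 12.2% of all tested genes. DESeq2 called 1 of them lower, where it called 4.64% of all its tested genes lower. *Tubb3*, a neuronal tubulin, was at 20.5, 12.6 and 11.0 CPM in control, against 8.71, 13.5 and 11.2 CPM in resveratrol, with overlap (-0.40 ± 0.26). *Piezo2*, a touch-sensitive channel, was at 9.86, 9.93 and 6.54 CPM in control, against 5.76, 5.05 and 5.24 CPM in resveratrol, without overlap (-0.71 ± 0.20), and DESeq2 called it. The sodium channel genes *Scn9a* and *Scn10a*, typical of pain-sensing neurons and named after their values were seen, had 1 count each over all libraries. They were the lowest of the list. The 7 tested genes had from 115 counts (*Trpv1*, also named after its values were seen) to 2838 counts (*Tubb3*) over all libraries.

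Other neural adhesion genes lay on both sides of no change. Of 17 listed genes 15 were tested, 9 with a lower and 6 with a higher mean (median -0.16). All resveratrol libraries were lower for 4 genes (26.7%) and higher for 2 (13.3%), beside 14.4% and 12.2% of all tested genes. DESeq2 called 3 lower, *Cdh2*, *Cntn1* and *Cntnap2*, and 2 higher, *Chl1* and *Alcam*. Of all its tested genes it called 4.64% lower and 6.87% in either direction. The lower genes are named for these calls. The most abundant, *Chl1*, the close homologue of L1, was at 401, 399 and 396 CPM in control, against 725, 510 and 518 CPM in resveratrol (0.55 ± 0.14). *Alcam*, an adhesion molecule of axons, epithelia and leukocytes and a receptor for CD6, was at 67.1, 56.5 and 62.1 CPM against 106, 86.6 and 89.0 CPM (0.60 ± 0.11). Both had every resveratrol library above every control library, and DESeq2 called both, while edgeR called none of the list. *Cdh2*, or N-cadherin, chosen after its values were seen, was at 14.9, 17.5 and 9.09 CPM against 4.94, 4.81 and 7.40 CPM (-1.27 ± 0.28). Its counts, like those of *Ncam1*, were lower in all 3 resveratrol libraries.

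**Figure D4:**
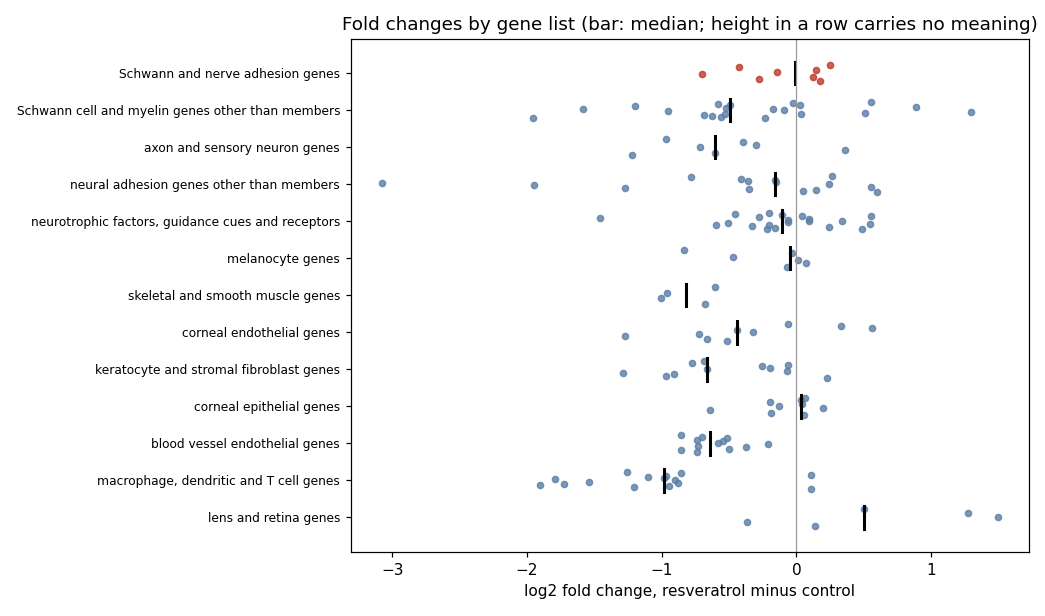
Log2 fold change (resveratrol minus control) of each tested gene in the 8-gene set and in 12 lists, with a bar at the median of each. The 8 genes centre near 0 with *Ncam1* at -0.70 as the lowest, and the macrophage, dendritic and T cell list has the lowest median, -0.99.

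Neurotrophic factors, guidance cues and their receptors had 13 lower and 8 higher means among 21 tested genes (median -0.11). *Sema3f*, a secreted repellent of axons, was at 139, 154 and 147 CPM in control, against 160, 138 and 155 CPM in resveratrol, and *Ntrk2*, the receptor of brain-derived neurotrophic factor, at 108, 71.6 and 68.4 CPM against 103, 72.8 and 61.9 CPM. Both overlapped between the groups. All resveratrol libraries were lower for 2 genes and higher for 1, shares of 9.52% and 4.76% beside 14.4% and 12.2% of all tested genes. DESeq2 called 1 lower and 1 higher, where it called 4.64% of all its tested genes lower and 6.87% in either direction. The lower was *Nrp1*, a semaphorin and VEGF receptor (-0.51 ± 0.085), and the higher was the semaphorin *Sema3c* (0.55 ± 0.14). Both were chosen after their values were seen.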

How the data were processed

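RNA from corneas was sequenced as 150 bp paired-end reads, per the labels' protocols. The deposited counts are raw whole numbers per gene, and the deposited FPKM values, made by the authors, are scaled for length and depth. The submitters' processing notes name mRatBN7.2, R 3.2.0 and DESeq2 without roles; the aligner, counter, annotation and strand setting were not given in the sources used here. Count columns were assigned by the names in a header that lacks 1 separator. Counts were filtered with filterByExpr (14213 genes left; the others held 0.0237% of counts), normalized by TMM and fitted in edgeR 4.0.16 (quasi-likelihood, Benjamini-Hochberg, threshold 0.05) in R 4.3.3. Standard errors come from limma 3.58.1 on log2 CPM (prior count 2), and the intervals place them around edgeR's fold changes. DESeq2 1.42.0 was an alternative, and others are given with their effects below. The fit was tested on simulated counts with 200 changed genes. All 8 symbols matched RefSeq, used for names and promoters alone. Members and lists were chosen with earlier results of these data known. Named beyond the members were the 2 most abundant tested genes of a list, the 3 genes nearest in pattern to *Sox10*, *Cdh19* and *Ncam1*, and genes said to be chosen after their values were seen. Some genes of the lists are not reported here by name.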

Additional observations from a re-analysis of the deposited data

How the results depend on the processing

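edgeR called 0 genes over all and 0 of the 8 members, and DESeq2 called 1007 and 1. Leaving out each library gave 0 to 21 genes over all, with 21 without control 3 and 1 without resveratrol 2, and 0 of the members each time. The number of members with a lower mean, 4, was 3 to 6 when each library was left out. For *S100b* the log2 fold change reversed to 0.83 without control 2, and leaving out each library gave -0.83 to 0.83. For *Cdh19* it reversed to -0.28 without resveratrol 1, -0.0056 without control 3 and -0.37 in the Oct libraries alone, and for *Prx* to -0.0053 without control 3, with ranges over left-out libraries of -0.28 to 0.56 for *Cdh19* and -0.0053 to 0.25 for *Prx*; the cause was not tested. *Mbp*, *Pmp22*, *Ncam1* and *L1cam* kept their direction in all 17 refits, and *Sox10* in the 16 that could test it, since *Sox10* and *Cdh19* did not reach 1 CPM and left the stricter filter. Same-numbered libraries showed no shared deviation: their deviations from the group means correlated at -0.0044, -0.012 and -0.022 across genes. This cannot tell whether the libraries were paired by design, which the labels do not say. With the replicate block edgeR called 0 genes and 0 members, 3 members had a lower mean, and *S100b* reversed to 0.0016. Depth limits *Sox10* and *Cdh19*, with 5 to 24 counts a library.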
